A study of Mytilus galloprovincialis with 40 samples.

Results

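The 56 cDNA clones described here had their highest fitted transcript level of the year in July in the digestive gland of the female mussel *Mytilus galloprovincialis*. They were chosen by the fitted month levels of the same 40 arrays, among the 1920 clones printed. A clone belonged to them if its relative abundance differed among the 12 months in a moderated F test of limma (adjusted p under 0.05 over all clones) and if July was the highest of its 12 fitted months. Of the 1920 clones, 719 (37.4%) passed the F test, and the 56 July clones were 2.92% of all clones. They were 7.79% of the clones past the F test. July was the highest month in 160 clones (8.33% of all clones) with or without the F test. Of these 160, 35% passed the F test, near the 37.4% of all clones.

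The animals were single females of the Bizerta Lagoon, Tunisia, taken in each month from May 2007 to April 2008, and according to the methods from the stage of gonad development that prevailed in the month. RNA of single animals of neighbouring months was labelled with Cy3 or Cy5 and hybridised in pairs to 40 arrays in a loop that ran through the year and closed with May 2007 against April 2008. July 2007 stood on 6 arrays, in 3 pairs with June and 3 pairs with August, and was labelled with Cy5 on 3 of them and with Cy3 on the other 3. No treatment was applied. The methods call the arrays of a step biological replicates, but neither they nor the labels say whether 1 animal served in several pairs, so the errors below measure the spread between arrays only.

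The digestive gland of a bivalve takes up and breaks down food particles, stores lipid and glycogen, and handles metals and other foreign compounds. The transcripts measured in it can follow food supply, water temperature and the reproductive cycle, all of which change through the year. A clone stands for a piece of a transcript printed on the slide, and the colour ratio of its spot gives the abundance in one animal relative to the other. The files name each clone by plate and well only, and the reference gene table held no such code. The July clones therefore cannot be given gene names, functions or sequences here, defining markers of the tissue could not be checked, and clones that come from the same transcript are not known. In a tissue sample, fewer cells of a type and less RNA per cell cannot be told apart.

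On the 40 arrays 16.4% to 82.8% of the clones exceeded the background in both colours in at least 1 of their 2 spots, and on the 6 July arrays 32.4% to 67.9%. The 2 Jul/Jun arrays (July over June) with July in Cy3 correlated with r = 0.78 across all clones. The first Jul/Jun array, with July in Cy5, had r = 0.07 and 0.03 with them. Aug/Jul arrays 2 and 3 (August over July), both with July in Cy5, correlated with r = 0.58. Array 1, with July in Cy3, had r = 0.28 and 0.16 with them. In Mar/Feb the pairs with the same dye orientation had r = 0.44 and 0.78, and the others -0.16 to -0.04. In May/Apr there was no such split, with 0.69 and 0.77 against 0.63 to 0.87. The part of the dye in these values was not tested. In Apr/Mar, array 1 had r between -0.81 and -0.62 with the other 3. Without that array the rule gave 59 July clones, 53 of them among the 56, and the median changes of the 56 were 0.28 from June to July and -0.49 from July to August. Without the first Jul/Jun array it gave 74, with 51 of the 56. Clones are not independent replicates, and these values describe the arrays.

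The July clones rose by a modest amount over a short season. Levels are given as log2 differences from the mean of each clone over the 12 months. The median level was -0.10 in May, 0.23 in June, 0.53 in July and 0.06 in August. In the months from September to April the median lay between -0.19 (January) and -0.05. Over all 1920 clones the medians of the months lay between -0.03 and 0.01. June was above the clone's own mean in 49 of the 56 clones and August in 31, against 9 in January.

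**Figure D1:**
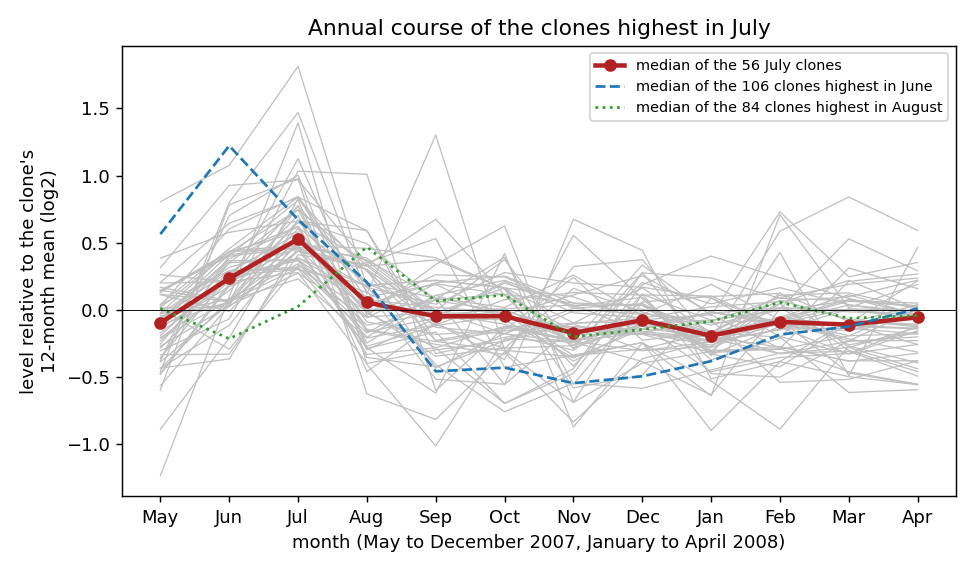
Fitted level of each clone relative to its own mean over 12 months (log2, y axis) by month (x axis); each grey line is 1 of the 56 July clones and the red line is their median. The July median of 0.53 stood between a June median of 0.23 and an August median of 0.06, while clones highest in June (dashed blue, 106 clones) reached a median of 1.22 in June and those highest in August (dotted green, 84 clones) one of 0.47 in August.

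The course follows from the rule that chose the clones and is a description. July exceeded the mean of the other 11 months by a median of 0.57 (log2, 1.49-fold), from 0.25 (1.19-fold) to 1.98 (3.94-fold), and the SE of this difference had a median of 0.19. Between the highest and the lowest month the median ratio was 1.96-fold (1.36 to 6.18). It reached 2-fold in 27 clones and 4-fold in 3. In the other 663 clones past the F test it was 2.08-fold (1.26 to 112).

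The clones highest in June and those highest in August had other courses. The median level of the 106 June clones fell from 1.22 in June to 0.67 in July, and then to -0.46 in September. The 84 August clones stood at -0.21 in June, 0.03 in July and 0.47 in August. The July clones had neither the low autumn level of the June clones, with a September median of -0.05, nor the June low of the August clones. These differences were fixed in part by the choice of the month and were not tested.

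July was seldom far above the month next to it in rank. The gap between July and the next highest month had a median of 0.15 (log2), from 0.00648 to 0.74. It exceeded its own SE in 21 of the 56 clones and 2 SE in 4. June was the next month in 19 clones, August in 13, September and November in 5 each, April and October in 4 each, February and March in 2 each, and January and December in 1 each. For 19 clones the next month thus fell outside May to September.

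The clones with June next had a median of 0.40 in June and of -0.05 in August, values that the grouping by next month fixes in part. Those with August next had a median of 0.07 in June and 0.37 in August. The remaining 24 clones had medians of 0.13 in June, 0.57 in July and -0.03 in August. May was the lowest month of 13 July clones and November of 10. January was the lowest of 7.

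The threshold of the rule fell within a run of similar values. The July clone with the weakest F test had an adjusted p of 0.0470 and stood 0.41 above the other 11 months. The clone with July highest that just missed it had an adjusted p of 0.0532 and stood 0.54 above them. A further 93 clones past the F test had July as the second highest month, behind June in 50 and behind August in 17. The closest of these fell short of its highest month by 0.00264 (log2), and the smallest lead of a July clone was 0.00648.

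In the direct comparison of July with June, the fitted difference of the July clones had a median of 0.30 (log2, 1.23-fold) and reached 1.30 (2.46-fold). A step between months was called where the adjusted p was under 0.05 and the log-odds B above 0. In Jul/Jun 4 of the 56 clones were called higher in July, and over all clones 1.09% were. All 3 arrays lay above 0 in 24 clones (over all clones 15.4%). The array medians of the July clones were 0.11, 0.36 and 0.41, and 36, 46 and 48 of the 56 clones were higher in July on the 3 arrays. The first array, the one with July in Cy5, was the lowest.

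The fall from July to August was larger. The fitted difference (August minus July) had a median of -0.49 (1.40-fold higher in July) and its extreme was -1.80 (3.48-fold). Of the 56 clones, 23 were called lower in August (3.23% over all clones). All 3 Aug/Jul arrays lay below 0 in 37 clones (over all clones 20.3%), and 15 clones moved in the July direction on all 6 arrays (3.75%). The array medians were -0.38, -0.50 and -0.52, with 8, 6 and 9 of the 56 clones above 0. In both steps 2 clones were called (0.104% of all clones), and in either 25 (4.22%). Since the rule used these contrasts, nothing is read from the counts.

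The step before July also carried a rise, larger in median than the 0.30 from June to July. From May to June the fitted difference had a median of 0.35 (log2), positive in 50 of the 56 clones. Of these, 10 were called higher (1.98% over all clones). The array medians were 0.38, 0.47 and 0.27. In the remaining 9 steps the medians of the July clones lay between -0.09 and 0.09. The fitted rise from January to February was positive in 38 clones, of which 2 were called (over all clones 2.24%).

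The calls outside early summer were few and spread over the year. From April to May 2 clones were called higher (2.4% over all clones) and 2 lower (4.06%). From August to September 1 was called higher (1.25%) and 5 lower (3.12%). From September to October 1 was called higher (0.938%) and 3 lower (0.99%), and from October to November 2 were higher (6.61%) and 3 lower (3.02%). From November to December 2 clones were higher (0.573%), and from December to January 1 was lower (1.51%). In all, 36 of the 56 clones were called in at least 1 of the 12 steps, against 454 of the other 663 clones past the F test and 26.5% of all clones.

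A few clones were described one by one, the 2 with the strongest rise from June to July and the 2 others with the strongest fall from July to August, by moderated t. Myt01-009B02 (print-tip block 7) had the largest range of the July clones, 6.18-fold. Its log2 ratios of July over June were 1.60, 1.14 and 1.18 on the 3 arrays, and those of August over July were -1.29, -1.92 and -2.14. July was thus the higher month on 6 of 6 arrays and in both dye orientations. The fitted differences were 1.30 ± 0.24 (SE) from June to July and -1.80 ± 0.24 from July to August. Its lowest months were May, at -1.23 from its own mean, and September, at -1.01, and February was the next after July at 0.73. July exceeded February by 0.66 ± 0.41. It was the brightest July clone and lay above background in both colours on all 40 arrays.

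Myt01-001F09 (block 15) rose between June and July and fell little afterwards. Its ratios of July over June were 0.15, 0.96 and 1.68, a mean of 0.93 ± 0.77 (SD, n = 3). Those of August over July were -0.18, 0.04 and -0.48. The Jul/Jun arrays thus agreed in direction but not in size, and the Aug/Jul arrays lay on both sides of 0. The fitted rise was 0.83 ± 0.16 (SE), while the fitted August difference was -0.30 ± 0.16. These SEs come from the fit over all 40 arrays and do not measure the wide spread of the 3 Jul/Jun arrays. With each print-tip block normalized on its own the differences were 0.75 and -0.07. The rise was 0.46 without Jul/Jun array 3, 1.13 without array 1 and 1.42 with plain background subtraction. October was next after July, 0.19 ± 0.26 below it. This clone was dim, above background in the July colour on 2 of the 6 July arrays and in both colours on 7 of 40.

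Myt01-003D06 (block 8) was high from February to April and again in June and July. Its fitted levels relative to its own mean were 0.59, 0.84 and 0.59 in February, March and April, -0.60 in May, 0.78 in June and 0.98 in July. In August the level was -0.62. The ratios of August over July were -1.08, -1.70 and -1.89, and those of July over June were 0.04, 0.25 and 0.44. The fitted fall to August was -1.60 ± 0.17 (SE) and the rise from June 0.20 ± 0.17, and July exceeded March by 0.14 ± 0.28. Its July level was not separated from those of June and March by their errors. The clone met the rule in 9 of the 13 other processing settings and in 39 of the 40 fits without 1 array. The exception was the fit without the first Apr/Mar array, where March was its highest fitted month.

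Myt01-005B05 (block 15) was high in July, with June next. The ratios of July over June were 0.49, 0.15 and 0.43, and those of August over July -0.97, -1.28 and -1.26. Its fitted differences were 0.41 ± 0.14 and -1.11 ± 0.14 (SE). The sizes depended on the normalization, with 0.22 and -0.86 when each print-tip block was normalized on its own. Relative to its own mean it stood at 0.82 in July, 0.40 in June and 0.20 in October, and the other months lay at or below 0.03.

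**Figure D2:**
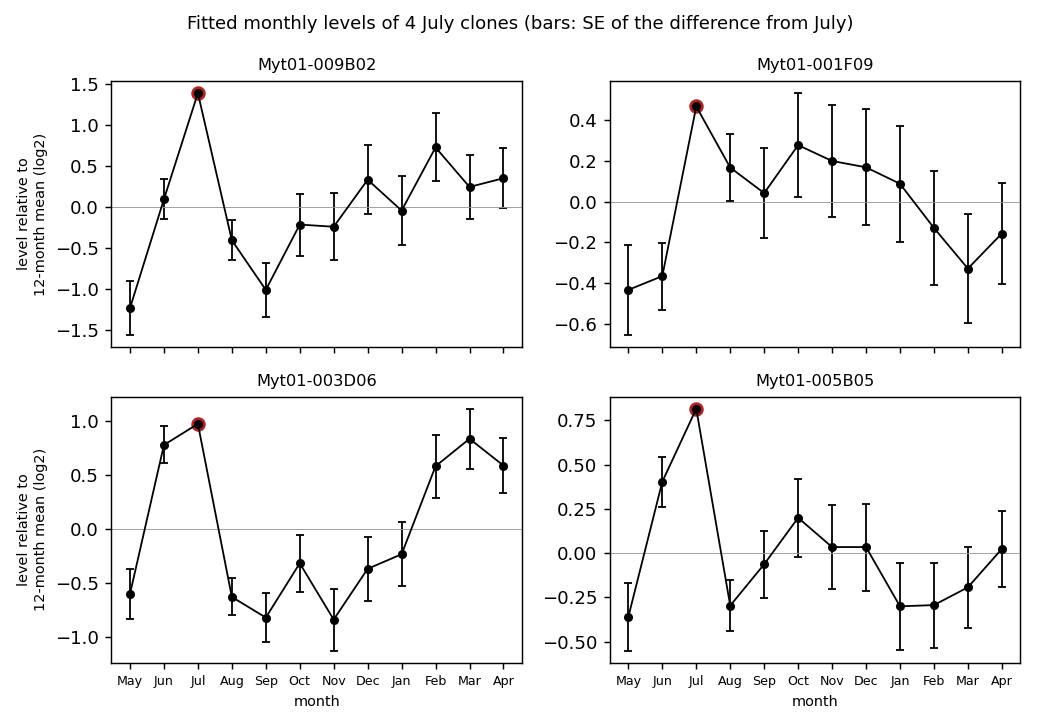
Fitted level of 4 July clones relative to their own 12-month mean (log2, y axis, scaled per panel) by month (x axis); black bars are the SE of the difference of each month from July, the red-rimmed point. Myt01-009B02 stood at 1.39 in July and -1.23 in May, whereas Myt01-003D06 was nearly as high in March (0.84) and June (0.78) as in July (0.98).

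The courses of the July clones were alike only in part. Pearson's r over the 12 fitted months had a median of 0.45 over the 1540 pairs of July clones and ran from -0.41 to 0.96. The months share arrays through the loop and all pairs share the July peak by choice, so the values describe the set. No July clone had an r above 0.9 with Myt01-009B02.

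Arrays that had no part in the choice give a view of the July level that the rule did not shape. The rule was applied again without each of the 6 July arrays, and the clones chosen then were read in the array left out. In the 3 Aug/Jul arrays July was higher in 70.9%, 77.8% and 74.5% of 55, 54 and 51 clones, against 50.8%, 47.4% and 47.6% of all clones. The median differences (July minus August) were 0.20, 0.42 and 0.42 (log2). In Jul/Jun arrays 2 and 3 July was higher in 75% and 73.5% of 52 and 49 clones, against 50.2% and 51.6% of all clones, with medians of 0.23 and 0.27.

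The first Jul/Jun array did not show the July excess. Chosen without it, 74 clones peaked in July, and in that array July was higher in 43.2% of them, against 49.9% of all clones, with a median of -0.08. It was the Jul/Jun array with July in Cy5, so dye, animals and array cannot be told apart in it. On the Aug/Jul arrays the held-out medians were 0.42 and 0.42 with July in Cy5 and 0.20 with July in Cy3. The cause was not tested. Without the first Jul/Jun array, the median rise of the 56 clones from June to July was 0.37 in place of 0.30. Clones are not replicates, animals of neighbouring pairs may be shared, and no test was made.

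**Figure D3:**
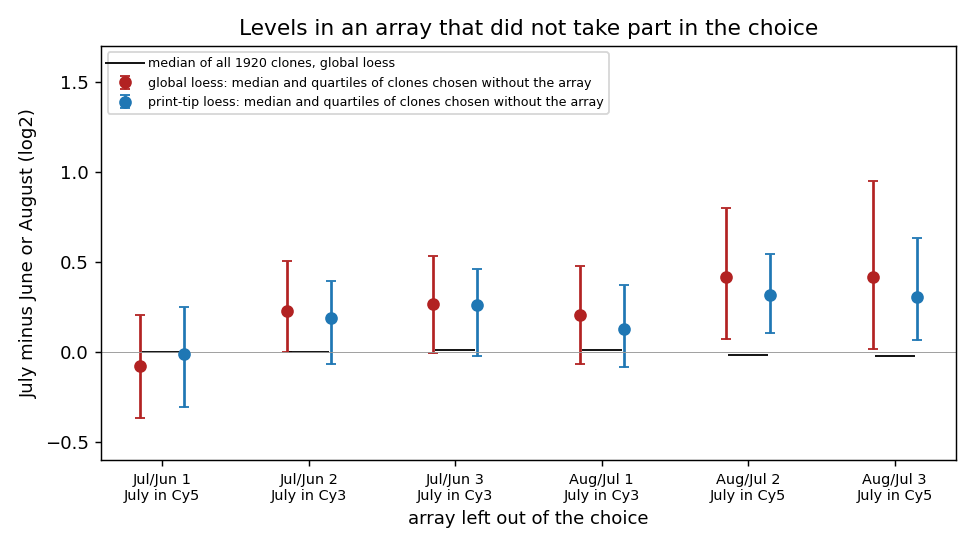
July minus June or August (log2, y axis) in each of the 6 July arrays (x axis, with the dye of July) for clones chosen without that array; points are medians and bars the quartiles, red for global loess, blue for print-tip loess, and black dashes are the medians of all clones. With global loess the median was -0.08 on the first Jul/Jun array and lay between 0.20 and 0.42 on the others.

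The rule used the dye labels to orient the ratios and fitted no dye term. A dye effect of a clone can then enter its residual spread and lower its F. The choice by the F test can thus by itself remove clones with a dye effect, and nothing is read from the counts below. With 1 dye coefficient per clone added to the fit, none of the 56 July clones was called for a dye effect by limma (adjusted p under 0.05 and B above 0), against 2.66% of all clones. Of the other 663 clones past the F test, 12 were called. At an unadjusted p under 0.05 there were 11 July clones (over all clones 25.6%), and with the adjusted p alone 4 (over all clones 8.96%). The dye coefficients of the July clones ran from -0.27 to 0.23 (log2), with a median size of 0.05, as over all clones. With the dye term all 56 clones remained July clones, among 60 in all. Median centring in place of loess gave 6 July clones called for a dye effect, where 9.38% of all clones were called.

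The July clones as a set were brighter than all clones but dimmer than the other clones past the F test. Their mean log2 intensity had a median of 7.73, against 7.31 over all clones and 8.22 for the other clones past the F test. They lay above background in both colours on a median of 20 of 40 arrays, against 14 over all clones and 26 for the other clones past the F test. The July colour was above background on all 6 July arrays in 28 clones and on 1 to 5 of them in the other 28. On the 3 Aug/Jul arrays the August colour did not exceed the background in 3 clones in which July did, and in 2 clones neither month did. On the 3 Jul/Jun arrays this held for June in 1 clone, and for both months in 1. The normexp offset of 50 draws the ratios of dim clones toward 1. The 2 spots of a clone differed by a median of 0.11 (log2) in the July clones and 0.12 over all clones. On the 6 July arrays the median was 0.12 in the July clones and 0.10 in the other clones past the F test.

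The positions on the slide were uneven. Each of the 16 print-tip blocks, the squares printed by 1 pin, held 120 clones. Block 15 held 16 of the 56 July clones, block 3 and block 16 held 7 each, and 4 blocks held none. The 2 right-hand columns of blocks, 3 and 4, held 46 of the 56, against 374 of the 719 clones past the F test and 960 of all 1920. The whole of block 15, clones past the F test or not, shifted with July. Its median over all clones was 0.17 (log2) above the other 11 months, 0.11 above June, and the fall to August was -0.28. In the other 15 blocks the median against the other 11 months lay between -0.15 and 0.07. After block 15, the lowest medians over all clones from July to August were those of block 16 (-0.18) and block 11 (-0.14). On the 6 July arrays the block 15 medians had the July direction in 6 of 6, from 0.08 to 0.17 on Jul/Jun and from -0.40 to -0.19 on Aug/Jul.

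The July level was therefore recomputed with a separate loess curve in each block, which removes a shift shared by the clones of a block. Of the 56 clones 36 remained July clones, among 56 in all, 7 of 16 in block 15 and 29 of 40 in the other blocks. Block 16 held 7 July clones before and 1 in this setting. The block columns 3 and 4 held 31 of the 56 July clones of this setting, against 410 of its 802 clones past the F test. The median fall of the 56 clones to August was -0.32 in place of -0.49, and their median in July 0.46 in place of 0.53. In block 15 the fall went from -0.57 to -0.25, and in the other blocks from -0.43 to -0.37. The 36 clones that remained had a median rise of 0.39 from June and a fall of -0.48 to August in that setting. Clones read in left-out arrays with block-wise loess were higher in July in 62.9% to 83.3% on Aug/Jul, in 64.7% and 71.1% on Jul/Jun arrays 2 and 3, and in 47.1% on the first, against 47.9% to 52.7% of all clones. With median centring the shares were 38.7%, 58.3% and 76% on the 3 Jul/Jun arrays and 73.1%, 81.0% and 78.3% on the 3 Aug/Jul arrays, of 21 to 31 clones, against 48.1% to 52.8% of all clones.

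**Figure D4:**
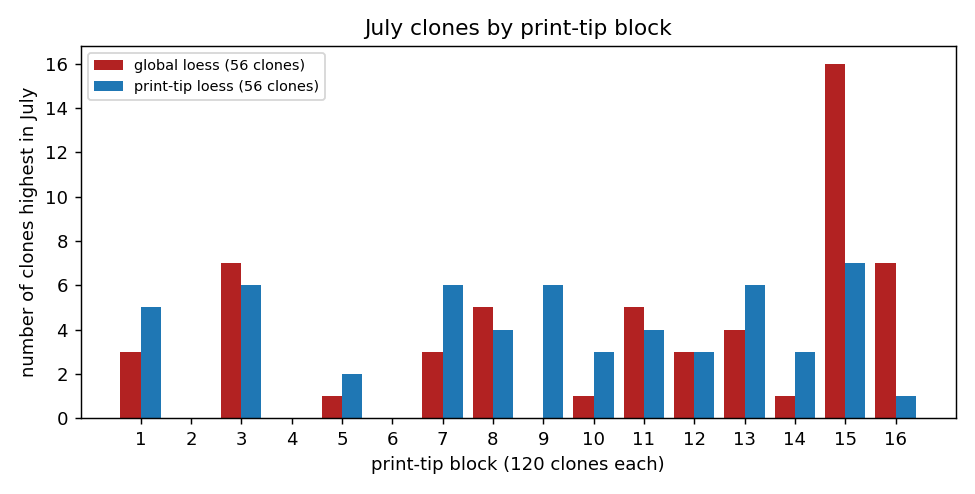
Number of clones highest in July and past the F test (y axis) in each of the 16 print-tip blocks (x axis, 120 clones each) with global loess (red) and print-tip loess (blue). Block 15 held 16 of 56 July clones with global loess and 7 of 56 with print-tip loess. Block 16 held 7 with global loess and 1 with print-tip loess.

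The plates from which the clones were printed varied likewise. Plate 17 held 9 July clones and plates 9 and 15 held 6 each, whereas plates 8, 12, 19 and 20 held none. Plates 9, 15 and 17 also had many clones past the F test, 52, 58 and 50 of 96, and plate 20 had 1. Plate, well and block are tied to each other by the printing, and their parts in these counts cannot be told apart.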

How the data were processed

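The authors deposited spot intensity values of 40 two-colour arrays read with GenePix 6.0 (foreground and local background per dye, no flags; foreground means and background medians were used here), and a table of log2 ratios that they normalized with limma (version not stated). The log2 ratios deposited by the authors matched values recomputed here with loess over all spots to within 0.00345 in 38 of 40 columns, and were used as an alternative. Intensities were corrected by normexp (offset 50), log2 ratios of the later over the earlier month were normalized by global loess fitted to clone spots, and both spots of each clone were then averaged. limma 3.58.1 in R 4.3.3 fitted 11 month coefficients relative to January, with 29 residual degrees of freedom. A spot was above background where its foreground was over 2 SD higher than the mean of its local background. The rule was tested on simulated data. The number of arrays limits the precision. Clones, lists and rules were chosen with earlier results of these data known. The 4 codes named were the 2 July clones with the largest moderated t from June to July and the next 2 with the most negative t from July to August. Same-numbered arrays of neighbouring steps were checked for shared deviations, and the numbers were not used as pairing. Most such arrays had the later month in the same dye, so the check cannot tell whether animals were shared. Alternatives were other background corrections, normalizations, scalings and fits, and each array left out in turn. Print-tip loess of the left-out arrays was chosen after the blocks had been seen. Genes, gene lists, markers and sequences were not analysed here, because the files give clones position codes only.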

Additional observations from a re-analysis of the deposited data

Results flagged for a closer look

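In the 4 steps with 4 arrays, 24 sets of 4 values of the named clones and of the July clones' medians and shares were screened for a single value far from the other 3, and chance picks about 1 set in 20. In Apr/Mar the log2 ratio of Myt01-003D06 on the first array was 0.54, against -0.50 to -0.42 on the other 3. Over all clones that array had r between -0.81 and -0.62 with its replicates. In the fit without it, March and not July was the highest month of Myt01-003D06.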

How the results depend on the processing

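The number of July clones was 37 with plain background subtraction, 24 with median centring, 90 with array weights, 27 at an adjusted F p under 0.01, 21 where July had to exceed the next month by more than the SE, and 162 for July or June. Without the May/Apr arrays, which close the loop, it was 38, with 30 of the 56 clones kept. Scaling of the log ratios gave 38 (37 of the 56 kept), and the log2 ratios of the authors gave 42 (39 kept). Over 40 fits without 1 array the number ran from 49 to 74. The median fall to August of the 56 clones was -0.71 with plain background subtraction, -0.33 with no background correction, -0.32 with print-tip loess and -0.37 with scaling of the log ratios, and from -0.51 to -0.45 over the fits without 1 array. The median rise from June was 0.20 to 0.37 over those fits, 0.18 with no background correction and 0.42 with plain background subtraction. The calls among the 56 clones in Jul/Jun were 2 with plain background subtraction, 1 with median centring, 14 with array weights and 3 to 6 without 1 array. Those in Aug/Jul were 13 with plain background subtraction or print-tip loess, 15 with median centring or array weights, 12 with scaling, and 14 to 25 without 1 array, with 14 without the second and 15 without the third Aug/Jul array. July clones called for a dye effect were 6 with median centring (180 of all clones), 1 without the May/Apr arrays (33 of all clones) and 0 to 2 without 1 array. The cause was not tested. No setting turned a direction. Of the 56 clones, 6 met the rule in all 13 other settings and 20 in all 40 fits without 1 array. Myt01-009B02 was among the former.

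Same-numbered arrays of neighbouring steps deviated together (r above 0.1) in 3 of 39 pairs, and differently numbered ones in 16 of 96. The numbers are not treated as pairing. Since most same-numbered arrays also shared the dye of the later month, these values do not settle whether animals were shared. With a replicate block the numbers were 58 July clones and medians of 0.30 and -0.49, with 4 and 23 calls. All 56 clones remained.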
